A study of Mus musculus with 9 samples.

Results

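The genes described here encode the enzymes that attach glutathione, glucuronic acid or sulfate to drugs, hormones and metabolites. They were chosen by symbol alone, as every row of the count tables named as a soluble glutathione transferase of the alpha, kappa, mu, omega, pi or theta class (Gst), a microsomal glutathione transferase (Mgst), a UDP-glucuronosyltransferase (Ugt) or a sulfotransferase (Sult). The rule found 67 of 52160 symbols, namely 25 Gst and Mgst, 21 Ugt and 21 Sult genes. Of these, 46 held enough counts to be tested, 23 of them glutathione transferases, 16 Ugt genes and 7 Sult genes. The other 21 members had at most 69 counts over all 9 libraries together, and 5 of them had no count.

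Polyadenylated RNA of whole kidney had been sequenced from mice of C57Bl/6N background at 16 weeks of age, in 3 groups of 3 libraries. WT was wild type. ΔPod (YBX1ΔPod) carried a deletion of Ybx1 from podocytes, the epithelial cells that wrap the glomerular capillaries. K2A (YBX1K2A) carried, in podocytes, a Ybx1 mutant with the substitutions K299A and K302A in exon 7, lysines needed for the acetylation-dependent release of the protein. The labels name a supplier for the wild-type animals only, and the driver of the podocyte alleles is not given in the sources used here. Nothing in the labels ties a library to its own animal, and p-values therefore measure only the spread between these samples, which may be technical.

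Conjugation makes lipid-soluble compounds more soluble in water and ready for export. Glutathione transferases join glutathione to electrophiles, and the product is trimmed at the brush border of the proximal tubule on its way to a mercapturic acid. UDP-glucuronosyltransferases sit in the endoplasmic reticulum and use UDP-glucuronic acid, and sulfotransferases of the cytosol use the sulfate donor PAPS. The proximal tubule is the main site of these reactions in the kidney.

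The libraries held 30776806 to 46852490 counts over the analysed symbols. Ybx1 itself lay at 1190, 1585 and 1185 CPM (counts relative to library size, after scaling for composition) in WT, at 1167, 881 and 605 CPM in ΔPod and at 1078, 1152 and 554 CPM in K2A. It did not pass the test in either comparison (log2 fold change -0.58, adjusted p = 0.465 and -0.51, adjusted p = 0.725). Xist, the RNA of the inactive X chromosome, was at 0 in every WT library and at 17.0 to 331 CPM in the mutant libraries, while 4 genes of the Y chromosome (Ddx3y, Eif2s3y, Kdm5d and Uty) lay at 11 to 40.6 CPM in WT, at 0 in ΔPod and at no more than 0.341 CPM in K2A. Genotype and this sex-linked difference therefore cannot be told apart in any comparison with WT. Longer transcripts had relatively more counts in WT 1, WT 3, ΔPod 3 and K2A 3, and shorter ones in the other 5 libraries. All 10 proximal tubule markers were measured, and their summed level was 41090 to 49700 CPM in WT, 18040 to 20570 in ΔPod and 18410 to 19490 in K2A. Kap alone gave most of that sum in all libraries but ΔPod 3 and K2A 3. It lay at 21830 to 38870 CPM in WT, 4002 to 17500 in ΔPod and 7148 to 14830 in K2A. Without Kap the sum overlapped between the groups. For Kap and for this sum too, genotype and the sex-linked difference cannot be told apart. In bulk tissue, fewer cells of a type and less RNA per cell cannot be told apart. The 7 liver markers summed to 164 to 497 CPM with Cps1, a liver-defining enzyme, at 0 to 0.0469, and the adrenal markers summed to at most 0.992 CPM.

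The comparison of ΔPod with WT asked what loss of Ybx1 from podocytes does to RNA of the whole kidney. Among the conjugation enzymes, alpha-class glutathione transferases and Ugt1a2 were several-fold higher in ΔPod, and Ugt2b38, the most abundant Ugt transcript of WT kidney per length, was far lower. Of 46 tested members 6 were called at an adjusted p of 0.05 (edgeR quasi-likelihood test), against 178 of 18067 tested genes, or 0.985%. Gsta2, Gsta4, Gsta5, Ugt1a2 and Ugt2b34 rose, where 0.399% of all genes did so, and Ugt2b38 fell, where 0.587% did. The 3 libraries of ΔPod lay wholly above or below the 3 of WT for 27 of 46 members, compared with 18.2% of all genes, and 27 members and 13.8% of genes had an unadjusted p under 0.05. The median log2 fold change was 0.89 over the members and 0.08 over all tested genes. Of the 46 rows, 7 are Ugt1a rows that are nearly a single measurement, as described with that locus. With these taken once, 40 members remain, with a median of 0.47, 21 without overlap and 21 with an unadjusted p under 0.05.

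The comparison of K2A with WT asked the same of a Ybx1 protein that podocytes cannot release. Gsta2, Gsta5 and Ugt1a2 rose, and Ugt2b38, Ugt2a3 and Ugt2b37 fell. These 6 of 46 members compare with 153 called genes in all (0.847%), with 0.321% of genes higher and 0.526% lower. The groups were without overlap for 24 of 46 members and for 20.1% of all genes, and 24 members and 10.6% of genes had an unadjusted p under 0.05. The median log2 fold change was 0.76 over the members and 0.09 over all genes, and with the Ugt1a rows taken once it was 0.73, with 18 of 40 members without overlap and 18 with an unadjusted p under 0.05. Both comparisons share the WT libraries. For 15 members the libraries of both mutant groups all lay above WT, against 5.2% of genes, and for 6 they all lay below, against 5.86%. Of those 15, 8 are Ugt1a rows that share a set of reads, as described with that locus.

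Every call named in these comparisons depended on having all 3 WT libraries. With 1 of the 9 libraries left out at a time, the Ugt2b37 call in K2A was lost in 8 fits. The calls of Gsta4 and Ugt2b34 in ΔPod, and of Ugt2b38 in either comparison, were lost in 7 fits. Those of Gsta5 and Ugt1a2 in ΔPod were lost in 3 fits, and the remaining calls in 4 to 6. Without WT 1, WT 2 or WT 3 the edgeR test called 0.139, 0.182 and 0.124% of all genes in ΔPod and 0.0161, 0.123 and 0.0269% in K2A, and 0 members in either comparison, although 21, 22 and 22 members had an unadjusted p under 0.05 in ΔPod and 16, 17 and 15 in K2A. Without ΔPod 1, ΔPod 2 or ΔPod 3 it called 3, 2 and 8 members in ΔPod (0.493, 0.195 and 2.22% of all genes), and 6, 3 and 10 in K2A (0.942, 0.514 and 1.57%). Without K2A 1, K2A 2 or K2A 3 it called 3, 3 and 8 members in ΔPod (0.419, 0.431 and 1.27% of all genes), and 0, 0 and 6 in K2A (0.0699, 0.0646 and 0.936%), where 22 and 14 members kept an unadjusted p under 0.05 in the fits that called 0.

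**Figure D1:**
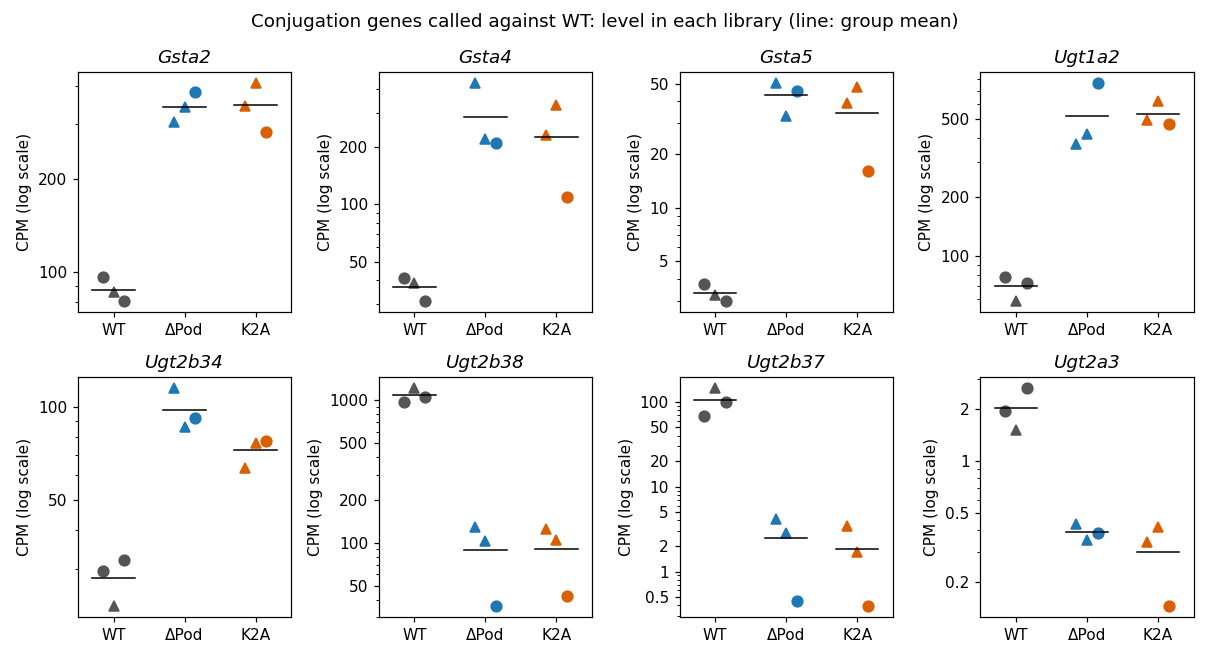
Level of the 8 called conjugation genes in each library, in CPM on a log axis, by group, with a line at the mean of 3 libraries. Circles are libraries in which longer transcripts had relatively more counts and triangles the others; in every panel the 6 mutant libraries lie wholly above (Gsta2, Gsta4, Gsta5, Ugt1a2, Ugt2b34) or wholly below (Ugt2b38, Ugt2b37, Ugt2a3) the 3 WT libraries.

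Among glutathione transferases the calls all fell in the alpha class, where 4 of 5 genes were higher in all 6 mutant libraries than in any WT library. Alpha-class enzymes conjugate electrophiles and reduce lipid hydroperoxides. Gsta2 (chromosome 9, 78331018 to 78355788, minus strand in mm10) is a major alpha-class enzyme of mouse tissues. It lay at 96.7, 86.3 and 80.5 CPM in WT, 305, 340.5 and 381 in ΔPod and 344, 409 and 284 in K2A. Every mutant library was well above the highest WT library, and the mutant groups overlapped each other. The log2 fold change was 1.96 (SE 0.258, adjusted p = 0.0136) in ΔPod and 1.98 (SE 0.258, adjusted p = 0.0165) in K2A. Gsta5, another alpha-class gene, lay at 3.74, 3.23 and 2.99 CPM in WT, 50.5, 32.8 and 45.7 in ΔPod and 38.7, 48.0 and 16.1 in K2A. It had the largest fold change of the glutathione transferases called, 3.69 (SE 0.448, adjusted p = 0.0101) in ΔPod and 3.37 (SE 0.442, adjusted p = 0.0165) in K2A, and K2A 3 was the lowest mutant library. The symbol Gsta5 had no match in the annotation used, so no position is given and its shared sequence could not be counted. Whether its reads were split with other alpha-class genes was not tested.

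Gsta4 (chromosome 9, 78182774 to 78209349, plus strand) encodes the alpha-class enzyme that prefers 4-hydroxynonenal, an aldehyde from lipid peroxidation. It lay at 40.8, 38.8 and 31.0 CPM in WT, 432, 219 and 209 in ΔPod and 231, 331 and 109.6 in K2A. All mutant libraries were above WT, with ΔPod 1 the highest and K2A 3 the lowest of them. Gsta4 passed in ΔPod at 2.96 (SE 0.484, adjusted p = 0.0313) and missed the threshold in K2A at 2.60 (SE 0.476, adjusted p = 0.0536). ΔPod 1, K2A 1 and K2A 2 had the highest adipocyte and urothelium marker sums. A fit without them left K2A 3 as the only K2A library, so its K2A values rest on that library alone. The K2A log2 fold change was then 1.58 for Gsta4 and 2.29 for Gsta5, and in ΔPod it was 2.53 and 3.56. The part of adipocytes and urothelium was not tested. Gsta1 was of low level, at 1.80, 1.52 and 1.61 CPM, against 5.32, 3.89 and 6.85 in ΔPod and 6.38, 4.33 and 4.70 in K2A, and missed the threshold in both (ΔPod log2 fold change 1.70 with SE 0.317 and adjusted p = 0.0528; K2A 1.64 with SE 0.317 and adjusted p = 0.0605). Of the 50-base stretches of the longest coding transcript, 89.7% of Gsta1 and 64.2% of Gsta2 also occur in other genes, so the counting could split reads between these copies. No such stretch of Gsta4 or Gsta3 does. Gsta3, the fifth alpha-class gene, had mean levels of 146 ± 30.1 CPM in WT, 215 ± 91.3 in ΔPod and 199 ± 60.2 in K2A (mean ± SD, n = 3), and the groups overlapped.

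The promoter windows of Gsta1 and Gsta2, neighbours on chromosome 9, are given to show how alike the copies are. Each runs from 250 bases before to 50 bases after the RefSeq transcript start in GRCm38.p6, Gsta1 at chr9:78230419-78230718, plus strand, and Gsta2 at chr9:78347096-78347395, minus strand. Capitals mark the longest run common to both, 29 bases, which occurs in 3 of 32851 promoter windows of that length (0.00913%). The windows were identical at 74.6% of aligned positions.
Gsta1: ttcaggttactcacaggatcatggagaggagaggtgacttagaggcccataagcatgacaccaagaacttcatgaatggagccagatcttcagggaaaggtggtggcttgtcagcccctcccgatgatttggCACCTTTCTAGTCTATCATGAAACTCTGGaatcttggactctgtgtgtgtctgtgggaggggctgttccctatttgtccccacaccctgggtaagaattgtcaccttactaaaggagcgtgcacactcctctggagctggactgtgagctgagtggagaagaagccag
Gsta2: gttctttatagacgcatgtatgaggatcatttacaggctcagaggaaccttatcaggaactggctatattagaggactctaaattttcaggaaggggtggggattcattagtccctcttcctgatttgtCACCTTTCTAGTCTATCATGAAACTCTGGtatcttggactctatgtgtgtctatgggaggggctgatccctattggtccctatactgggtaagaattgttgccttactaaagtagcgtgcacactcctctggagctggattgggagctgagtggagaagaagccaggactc

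Outside the alpha class no glutathione transferase was called in a comparison with WT. Gsto1, an omega-class enzyme that reduces dehydroascorbate and mixed disulfides, lay at 37.5, 37.9 and 31.6 CPM in WT, 90.3, 93.9 and 71.5 in ΔPod and 93.7, 108 and 77.8 in K2A. All mutant libraries were well above WT without a call (ΔPod log2 fold change 1.26 with SE 0.254 and adjusted p = 0.0672; K2A 1.39 with SE 0.255 and adjusted p = 0.0540). Gstm6, a mu-class gene of low level, lay at 1.27, 1.09 and 1.48 CPM in WT, 1.95, 2.02 and 3.35 in ΔPod and 2.60, 3.50 and 2.27 in K2A, also without overlap with WT or a call (ΔPod log2 fold change 0.93 with SE 0.341 and adjusted p = 0.314; K2A 1.12 with SE 0.342 and adjusted p = 0.239).

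By mean level per kilobase of transcript, the highest glutathione transferases of WT kidney were Gstm1 (253 CPM per kilobase), Mgst3 (127), Gstm5 (125) and Gstp1 (102). Gstm1 is a mu-class enzyme of broad substrate range. It lay at 432, 327 and 361 CPM in WT, 44.3, 163 and 250.2 in ΔPod and 217, 233 and 396 in K2A. ΔPod was wholly below WT and K2A overlapped it, and neither difference passed (ΔPod log2 fold change -1.29 with SE 0.562 and adjusted p = 0.361; K2A -0.40 with SE 0.554 and adjusted p = 0.822). Gstp1, the pi-class enzyme, lay at 164, 177 and 135 CPM in WT, 103, 90.0 and 78.5 in ΔPod and 119.9, 145 and 93.8 in K2A. Its ΔPod libraries were all below WT, with log2 fold changes of -0.81 (SE 0.267, adjusted p = 0.271) and -0.41 (SE 0.266, adjusted p = 0.686), and 62.3% of its 50-base stretches are shared with Gstp2. Gstm5 had means of 159.7 ± 45.2, 202 ± 102 and 219 ± 98.6 CPM in WT, ΔPod and K2A (mean ± SD, n = 3), and overlapped between all groups. The other tested members of the kappa, mu, omega, pi and theta classes had log2 fold changes from -1.31 to 1.55 and none was called.

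The microsomal enzymes, membrane proteins that act on lipid hydroperoxides and leukotrienes, varied widely within groups. Mgst3 lay at 112, 209 and 98.2 CPM in WT, 805, 336 and 106 in ΔPod and 394, 420.3 and 118 in K2A. ΔPod 3 and K2A 3 were close to WT 1, and ΔPod 1 was far above every other library. The log2 fold changes were 1.58 (SE 0.750, adjusted p = 0.382) and 1.16 (SE 0.742, adjusted p = 0.680). Mgst1 was likewise highest in ΔPod 1, at 53.8, 75.7 and 48.9 CPM in WT, 238, 126 and 45.4 in ΔPod and 163, 212 and 111 in K2A, with 1.20 (SE 0.552, adjusted p = 0.377) and 1.45 (SE 0.556, adjusted p = 0.372). Mgst2 was near the limit of detection, at 0, 0.0859 and 0.0247 CPM in WT, 1.37, 0.211 and 0.0202 in ΔPod and 0.744, 0.919 and 0.0484 in K2A. Its 3 highest libraries, ΔPod 1, K2A 1 and K2A 2, were also the 3 in which the 6 urothelium markers summed highest, 44.4, 55.3 and 67.0 CPM, where the other libraries held 0.645 to 11.4 CPM. All 6 of these markers were measured, and the part of urothelium in the Mgst2 values was not tested.

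At the Ugt1a locus, Ugt1a7c had nearly all of the row-specific counts in WT, and Ugt1a2 most of them in both mutant groups. The locus holds alternative first exons that are joined to a common set of downstream exons, so each enzyme has its own substrate-binding part and the same UDP-glucuronic acid-binding part. In the annotation used, all 9 Ugt1a genes share 1311 exon bases. The deposited rows show it: Ugt1a5, Ugt1a8 and Ugt1a9 held equal or nearly equal counts in every library, from 2037 in WT 2 to 8437 for Ugt1a5 in ΔPod 3. The lowest of the 9 rows in a library was taken as the common count and subtracted from each row, and the remainder is called the row's own count. How the counting treated reads in shared exons is not given in the sources used here, so own counts are differences between rows.

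Ugt1a2 (chromosome 1, 88200601 to 88218997, plus strand) had 18, 4 and 7 own counts in WT, 6784, 13603 and 29640 in ΔPod and 12576, 16542 and 14533 in K2A. As CPM these were 0.499, 0.115 and 0.173 in WT, 245, 319 and 597 in ΔPod and 389.8, 490.3 and 352 in K2A. Ugt1a2 was barely detected beyond the common count in WT and abundant in every mutant library, and the mutant groups overlapped. With own counts in place of the Ugt1a rows, a fit added after seeing the data, the log2 fold change of Ugt1a2 was 10.51 (SE 0.776, adjusted p = 0.00197) in ΔPod and 10.60 (SE 0.778, adjusted p = 0.00330) in K2A. As deposited, with the common count included, the Ugt1a2 row lay at 77.7, 58.4 and 72.7 CPM in WT, 372, 419 and 767 in ΔPod and 493, 620.3 and 471 in K2A, with log2 fold changes of 2.90 (SE 0.358, adjusted p = 0.0113) and 2.92 (SE 0.359, adjusted p = 0.0140). In WT, 99.4 to 99.8% of that row was the common count, against 22.2 to 34.1% in ΔPod and 21.0 to 25.3% in K2A.

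Ugt1a7c (chromosome 1, 88095062 to 88220002, plus strand) had lower own counts in the mutants, without passing the test. Its own count is not a measure of its first exon alone. The annotated gene ends beyond Ugt1a2, which ends at 88218997, and has 1915 own exon bases against 900 in Ugt1a2. Of its 50-base stretches, 69.1% also occur in Ugt1a6a, common exons included. In the other direction, 100% of the stretches of Ugt1a6a and 80.7% of those of Ugt1a6b occur in Ugt1a7c. Own counts therefore need not separate Ugt1a7c from Ugt1a6a and Ugt1a6b, and which of these genes gave the reads was not tested. Ugt1a7c had 260.4, 164 and 265 CPM of own counts in WT, 34.5, 50.4 and 108 in ΔPod and 60.1, 82.0 and 141 in K2A. All 6 mutant libraries were below the lowest WT library, and in each mutant group the third library was the highest. The log2 fold change of its own counts was -1.83 (SE 0.507, adjusted p = 0.188) in ΔPod and -1.28 (SE 0.499, adjusted p = 0.383) in K2A. Its share of all own counts of the locus was 98.0 to 98.4% in WT, 12.1 to 14.9% in ΔPod and 13.1 to 27.0% in K2A, while that of Ugt1a2 was 0.0641 to 0.188%, 82.2 to 86.4% and 67.2 to 85.0%. The common count itself lay at 77.2, 58.3 and 72.5 CPM in WT, 127, 99.9 and 170 in ΔPod and 104, 129.9 and 119 in K2A, above WT in every mutant library but not called (ΔPod log2 fold change 0.93 with SE 0.281 and adjusted p = 0.230; K2A 0.76 with SE 0.280 and adjusted p = 0.348).

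Per exon base, Ugt1a2 own counts exceeded the common count in the mutant libraries, for example 32.9 own counts per own base against 6.43 common counts per common base in ΔPod 3. Ugt1a1, the enzyme that conjugates bilirubin, had 0.139, 0.143 and 0.321 CPM of own counts in WT, 1.70, 3.12 and 14.2 in ΔPod and 3.32, 4.65 and 20.0 in K2A. All mutant libraries were above WT, and the difference missed the threshold at 4.95 (SE 1.1, adjusted p = 0.0943) and 5.50 (SE 1.12, adjusted p = 0.0744). Ugt1a6b, of the phenol-conjugating Ugt1a6 group, had 1.91, 1.20 and 2.05 CPM of own counts in WT, 0.0723, 0.281 and 0.383 in ΔPod and 0.217, 0.148 and 0.242 in K2A. Its own counts were lower in all mutant libraries, at -2.75 (SE 0.550, adjusted p = 0.0662) and -3.06 (SE 0.565, adjusted p = 0.0538), whereas the deposited row with the common count was higher in all of them (ΔPod log2 fold change 0.90 with SE 0.281 and adjusted p = 0.249; K2A 0.73 with SE 0.280 and adjusted p = 0.373). The rows of Ugt1a1, Ugt1a5, Ugt1a6a, Ugt1a6b, Ugt1a8, Ugt1a9 and Ugt1a10 all held 85.6 to 100% common count, so their higher deposited values in the mutants are nearly a single measurement.

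**Figure D2:**
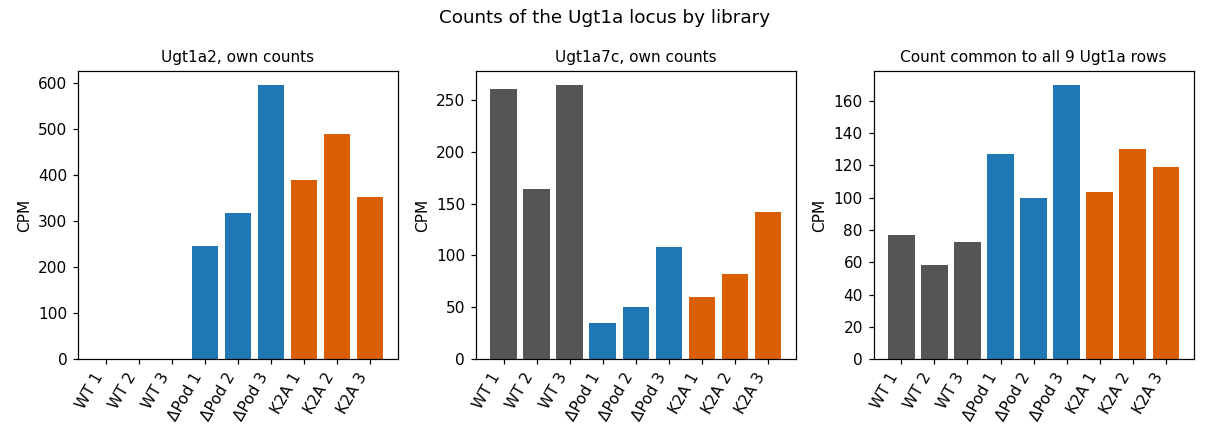
Counts of the Ugt1a locus in each library in CPM, from 0: the own counts of Ugt1a2, the own counts of Ugt1a7c and the count common to all 9 Ugt1a rows. Bars are single libraries; Ugt1a2 lies at 0.115 to 0.499 CPM in WT and at 245 to 597 CPM in the mutant libraries, while Ugt1a7c is highest in the 3 WT libraries.

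The promoter windows of the genes with most own counts in WT (Ugt1a7c) and in the mutants (Ugt1a2) are given. Their RefSeq start sites lie 105610 bases apart in GRCm38.p6, with the Ugt1a7c window at chr1:88094751-88095050, plus strand, and the Ugt1a2 window at chr1:88200361-88200660, plus strand. The windows were identical at 46.2% of aligned positions, and no stretch is capitalised.
Ugt1a7c: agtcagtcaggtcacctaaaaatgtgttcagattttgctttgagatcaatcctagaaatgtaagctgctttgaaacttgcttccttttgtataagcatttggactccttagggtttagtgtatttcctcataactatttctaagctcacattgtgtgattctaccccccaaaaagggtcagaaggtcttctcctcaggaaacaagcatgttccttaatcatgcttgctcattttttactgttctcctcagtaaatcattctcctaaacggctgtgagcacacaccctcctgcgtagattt
Ugt1a2: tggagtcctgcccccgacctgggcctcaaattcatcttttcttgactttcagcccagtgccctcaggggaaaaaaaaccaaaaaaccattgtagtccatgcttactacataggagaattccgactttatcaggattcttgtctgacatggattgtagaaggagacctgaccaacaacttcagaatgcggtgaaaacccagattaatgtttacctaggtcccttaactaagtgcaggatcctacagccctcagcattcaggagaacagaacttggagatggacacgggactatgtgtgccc

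The Ugt2 enzymes, which glucuronidate steroids, bile acids and drugs, changed in both directions on the same stretch of chromosome 5. Ugt2b38 (chromosome 5, 87409942 to 87424203, minus strand) had the highest mean level per length of all Ugt genes in WT, 572 CPM per kilobase. It lay at 966, 1217 and 1061 CPM in WT, 129, 102 and 35.8 in ΔPod and 125, 104 and 42.4 in K2A. All mutant libraries were below WT by a wide margin, with the third library of each mutant group the lowest. Ugt2b38 fell in both, with a log2 fold change of -3.60 (SE 0.583, adjusted p = 0.0313) in ΔPod and -3.57 (SE 0.582, adjusted p = 0.0326) in K2A.

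Ugt2b37 (chromosome 5, 87240493 to 87254804, minus strand) lay at 67.9, 146 and 99.9 CPM in WT, 4.16, 2.88 and 0.443 in ΔPod and 3.41, 1.69 and 0.387 in K2A. The groups did not overlap, and its log2 fold change was the largest in size of any deposited member row, -5.39 (SE 1.03, adjusted p = 0.0564) in ΔPod, which missed the threshold, and -5.84 (SE 1.05, adjusted p = 0.05) in K2A, just under it. The K2A call was lost when any single library but ΔPod 3 was left out. Without K2A 1, for example, the value in K2A was -6.67, not called (adjusted p = 0.123). Ugt2b5 lay at 5.66, 7.93 and 5.14 CPM in WT, 2.60, 1.12 and 0.322 in ΔPod and 1.24, 1.07 and 0.605 in K2A, without overlap with WT and without a call (ΔPod log2 fold change -2.22 with SE 0.668 and adjusted p = 0.231; K2A -2.68 with SE 0.682 and adjusted p = 0.153). Of the 50-base stretches of Ugt2b38, 37.4% occur in other genes, most of them in Ugt2b5, so reads could be split among these copies. Ugt2a3 (chromosome 5, 87324972 to 87337195, minus strand), which lies between Ugt2b37 and Ugt2b38, had low levels of 1.94, 1.52 and 2.64 CPM in WT, 0.434, 0.352 and 0.383 in ΔPod and 0.341, 0.415 and 0.145 in K2A. All mutant libraries were below WT, and the difference passed in K2A (log2 fold change -2.76, SE 0.456, adjusted p = 0.0338) and missed in ΔPod (log2 fold change -2.38, SE 0.444, adjusted p = 0.0533).

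Ugt2b34 (chromosome 5, 86889767 to 86906937, minus strand) lies on the same stretch and was higher in the mutants. It lay at 29.5, 22.7 and 32.1 CPM in WT, 115, 86.1 and 91.7 in ΔPod and 63.5, 76.3 and 77.5 in K2A. ΔPod was wholly above K2A and both were above WT. Ugt2b34 rose in ΔPod (log2 fold change 1.79, SE 0.264, adjusted p = 0.0216), and missed the threshold in K2A (log2 fold change 1.37, SE 0.261, adjusted p = 0.0573). Only 1.45% of its 50-base stretches occur in another gene.

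The promoter windows of Ugt2b5, Ugt2b37 and Ugt2b38 are given because these were the tested Ugt2b genes lower in all mutant libraries. In GRCm38.p6 the windows lie at chr5:87140291-87140590, minus strand, at chr5:87254739-87255038, minus strand, and at chr5:87424154-87424453, minus strand. Capitals mark the longest run common to all 3 windows, 62 bases, which starts 68, 85 and 71 bases before the start site and occurs in 3 of 32851 windows (0.00913%). Pairwise identity of the aligned windows was 76.2 to 86.9%.
Ugt2b5: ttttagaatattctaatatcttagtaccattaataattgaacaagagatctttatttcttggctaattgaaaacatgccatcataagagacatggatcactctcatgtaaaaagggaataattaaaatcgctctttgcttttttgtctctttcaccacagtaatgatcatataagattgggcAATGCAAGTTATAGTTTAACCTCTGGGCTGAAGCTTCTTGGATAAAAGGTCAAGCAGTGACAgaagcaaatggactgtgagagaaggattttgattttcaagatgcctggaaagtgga
Ugt2b37: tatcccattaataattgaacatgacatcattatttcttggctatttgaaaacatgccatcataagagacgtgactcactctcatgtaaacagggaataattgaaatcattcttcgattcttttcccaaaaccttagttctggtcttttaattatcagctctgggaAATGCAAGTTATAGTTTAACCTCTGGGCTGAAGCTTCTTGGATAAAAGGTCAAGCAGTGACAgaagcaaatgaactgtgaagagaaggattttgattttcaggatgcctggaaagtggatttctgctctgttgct
Ugt2b38: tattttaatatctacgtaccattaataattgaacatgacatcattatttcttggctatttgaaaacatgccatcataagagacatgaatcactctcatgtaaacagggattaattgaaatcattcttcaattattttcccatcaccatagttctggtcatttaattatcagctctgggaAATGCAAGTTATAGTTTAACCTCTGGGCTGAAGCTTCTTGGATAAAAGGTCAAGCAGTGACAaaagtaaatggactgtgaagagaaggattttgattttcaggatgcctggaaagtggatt

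The Ugt3a enzymes, which in humans use sugar donors other than UDP-glucuronic acid, were abundant and lower in all mutant libraries without a call. Ugt3a2 had 553 CPM per kilobase in WT, second to Ugt2b38. It lay at 1764, 1646 and 1740 CPM in WT, 796, 909.8 and 678 in ΔPod and 985, 1082 and 847 in K2A, with log2 fold changes of -1.11 (SE 0.254, adjusted p = 0.101) and -0.82 (SE 0.252, adjusted p = 0.241). Ugt3a1 (83.7 CPM per kilobase in WT) lay at 232, 222 and 216 CPM in WT, 187, 205 and 91.9 in ΔPod and 183, 172 and 119 in K2A, with -0.47 (SE 0.344, adjusted p = 0.506) and -0.50 (SE 0.344, adjusted p = 0.702). Of the proximal tubule markers, Kap and 1 of the other 9 were also lower in all mutant libraries. Without Kap, the sum overlapped between the groups, at 10820 to 19680 CPM in WT, 3064 to 14030 in ΔPod and 4661 to 11260 in K2A. Among libraries of the same kind by transcript length, every mutant library was lower than WT. Where longer transcripts had more counts, the sum was 19680 and 19250 CPM in WT, 14030 in ΔPod 3 and 11260 in K2A 3. In the others it was 10820 CPM in WT 2, 3064 and 5601 in ΔPod, and 4661 and 5003 in K2A. Slc5a12 went the other way, at 115 to 201 CPM in WT and 364 in ΔPod 3. The part of these markers' cells in the lower Ugt2b and Ugt3a levels was not tested.

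The sulfotransferases were described by 7 tested genes of 21, and none was called. Sult1d1 (chromosome 5, 87554645 to 87569027, minus strand), which sulfates catecholamines in the mouse, was the highest at 356 CPM per kilobase in WT. It lay at 698, 1249 and 681 CPM in WT, 3780, 2035 and 512 in ΔPod and 1697, 1805 and 1325 in K2A. K2A was wholly above WT, and ΔPod held both the highest and the lowest library of all 9, with log2 fold changes of 1.27 (SE 0.627, adjusted p = 0.390) and 0.88 (SE 0.622, adjusted p = 0.712). Sult1a1, the phenol sulfotransferase, lay at 9.76, 13.7 and 10.2 CPM in WT, 32.4, 20.5 and 10.5 in ΔPod and 28.7, 26.0 and 29.1 in K2A. Its K2A libraries were all above WT (ΔPod log2 fold change 0.92 with SE 0.398 and adjusted p = 0.359; K2A 1.32 with SE 0.402 and adjusted p = 0.237). Sult1c2 had means of 81.9 ± 11.8, 107 ± 30.6 and 88.0 ± 29.5 CPM and Sult1b1, which sulfates thyroid hormones, of 4.55 ± 1.42, 11 ± 7.97 and 8.35 ± 4.01 CPM in WT, ΔPod and K2A (mean ± SD, n = 3), and both overlapped between groups. The 14 untested Sult genes included Sult1e1, the estrogen sulfotransferase, and most of the Sult2a genes.

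**Figure D3:**
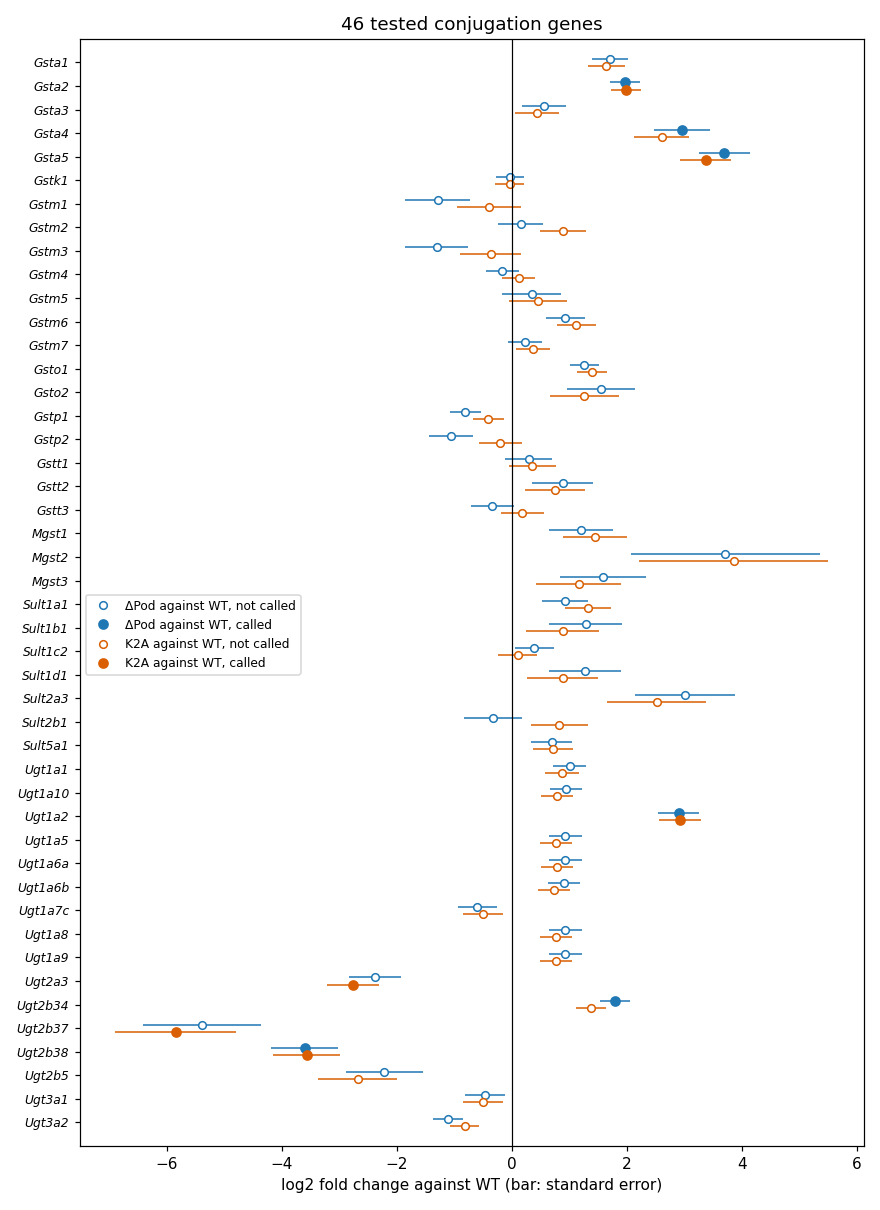
Log2 fold change against WT of the 46 tested conjugation genes in ΔPod and K2A, with bars of 1 standard error; filled points passed the edgeR test at an adjusted p of 0.05. The filled points to the right are Gsta2, Gsta4, Gsta5, Ugt1a2 and Ugt2b34, and those to the left are Ugt2a3, Ugt2b37 and Ugt2b38; both comparisons share the WT libraries.

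Summed over each superfamily, with the common Ugt1a count taken once, the Ugt genes held 3409, 3488 and 3500 CPM in WT, 1646, 1784 and 1795 in ΔPod, and 1924, 2151 and 1730 in K2A. No mutant library reached WT. The make-up of that sum changed too: Ugt1a made up 6.45 to 10.1% of Ugt counts in WT, 25.0 to 50% in ΔPod and 29.2 to 37.1% in K2A. Ugt2b made up 31.4 to 39.9%, 7.14 to 15.2% and 7.0 to 10.1%, and Ugt3a was the largest part in all libraries but ΔPod 3, at 53.6 to 58.5%, 42.9 to 62.5% and 55.9 to 60.7%. The glutathione transferases summed to 1732, 1964 and 1504 CPM in WT, 3681, 2464 and 1914 in ΔPod, and 2902, 3365 and 1946 in K2A, so the third library of each mutant group was within the range of WT. The sulfotransferases, mostly Sult1d1, summed to 808, 1342 and 779.6 CPM in WT, 3927, 2160 and 672 in ΔPod, and 1842, 1959 and 1415 in K2A.

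**Figure D4:**
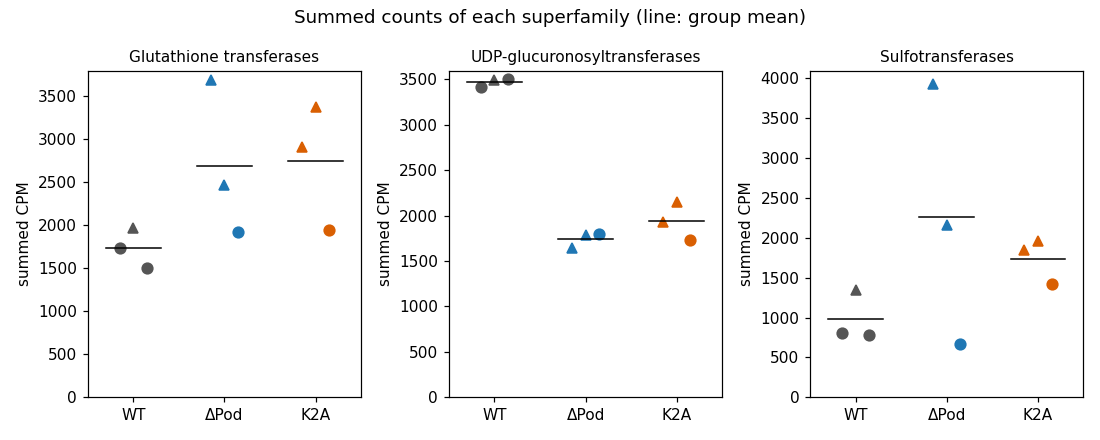
Summed CPM of the glutathione transferases, UDP-glucuronosyltransferases and sulfotransferases in each library, on axes from 0, with a line at the mean of 3 libraries. Circles are libraries in which longer transcripts had relatively more counts and triangles the others; the Ugt sum is 3409 to 3500 CPM in WT and 1646 to 2151 CPM in the mutant libraries, while the glutathione transferase sum overlaps between WT and both mutant groups and the sulfotransferase sum between WT and ΔPod.

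Some members followed the division of the libraries by transcript length. Within all 3 groups, 17 of 46 members were higher in each library with relatively more counts of shorter transcripts than in the others, against 35.2% of all genes, a similar share, and 5 were lower, against 34.4%. The 17 included Sult1d1, Mgst1, Mgst3, Gstt2, Gsta3 and Gstp1, and also Ugt2b5, Ugt2b37 and Ugt2b38, and the 5 were Gstm1, Gstm3, Gstt3, Ugt1a1 and Ugt1a7c. Gsta2, Gsta4, Gsta5, Ugt1a2, Ugt2b34 and Ugt2a3 were in neither set. Because each mutant group held 1 library of the longer kind and WT held 2, differences were also taken within a kind, with 1 library against 2. Among the libraries of the longer kind the difference in mean log2 CPM between ΔPod and WT was 2.11 for Gsta2, 2.55 for Gsta4, 3.75 for Gsta5, 3.35 for Ugt1a2, 1.57 for Ugt2b34 and -4.82 for Ugt2b38, and among the shorter kind it was 1.9, 2.99, 3.63, 2.76, 2.13 and -3.4 in the same order. For Sult1d1 it was -0.43 and 1.15, and for Mgst3 0.02 and 1.32. Between K2A and WT it was 1.69 and 2.12 for Gsta2, 2.25 and 3.71 for Gsta5, 2.65 and 3.24 for Ugt1a2, -4.58 and -3.41 for Ugt2b38, -7.55 and -5.89 for Ugt2b37 and -3.55 and -1.87 for Ugt2a3. With the kind of library as a term in the fit, 21 members were called in ΔPod and 13 in K2A, against 6 and 6 without it. Calls among all tested genes became more frequent with this term as well, so the gain was not particular to the members. For ΔPod 3.96% of all genes were then called, where the fit without the term called 0.985%. The K2A shares were 4.09% with the term and 0.847% without.

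**Figure D5:**
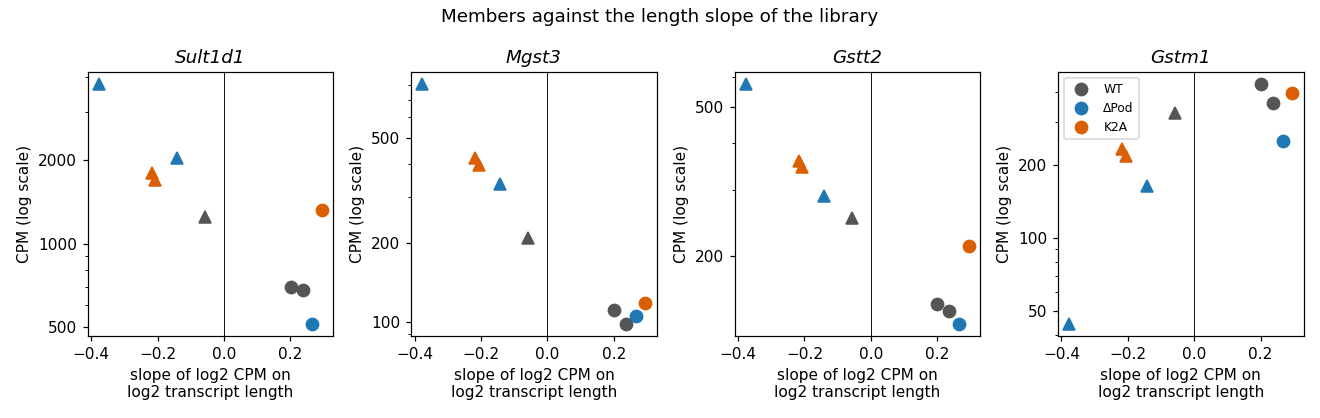
Level of Sult1d1, Mgst3, Gstt2 and Gstm1 in each library, in CPM on a log axis, against the slope of that library's log2 CPM on log2 transcript length, relative to the mean of all libraries. The slope ran from -0.377 in ΔPod 1 to 0.295 in K2A 3; the first 3 genes are highest and Gstm1 is lowest in ΔPod 1.

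The comparison of K2A with ΔPod asked whether a protein that cannot be released differs from its absence. The edgeR test called 0 of 18067 genes (0.0%) and so 0 of 46 members, whose median log2 fold change was -0.02, against -0.01 over all genes. At an unadjusted p under 0.05 there were 364 genes (2.01%) and 1 member, Sult2b1. DESeq2 called 12 genes and 0 members, and limma-voom without sample weights called 0 members. With sample weights limma-voom called 13 members (28.3%) and 4749 genes (26.3%), a similar share. The members with the smallest p were Sult2b1 (1.15, SE 0.499), which sulfates cholesterol and pregnenolone, Gstp2 (0.86, SE 0.383), Gstm2 (0.74, SE 0.399), Gstm3 (0.94, SE 0.542) and Ugt2b34 (-0.43, SE 0.256), each at an adjusted p of 1.0. Sult2b1 lay at 1.12, 1.24 and 0.625 CPM in ΔPod and 3.41, 2.25 and 0.968 in K2A, and Gstm2 at 48.4, 42.9 and 38.5 and 87.3, 97.2 and 31.9. Of all 9 libraries both were highest in K2A 1 and K2A 2, the libraries with the highest adipocyte and urothelium marker sums (253 and 731 CPM over 7 adipocyte markers, against 3.95 in K2A 3), and the part of those cells was not tested. Gstp2 and Ugt2b34 were the only members without overlap between the mutant groups, 2 of 46 against 5.11% of all genes.

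Other genes of these pathways were called in both directions. A list of 100 tested genes covered glutathione turnover, donor supply, other conjugations, export, regulation and 11 glutathione transferase relatives outside the naming rule. Of these genes, 2 were called higher and 4 lower in ΔPod, and 2 and 2 in K2A. These are 6% and 4% of the list, against 0.985% and 0.847% of all genes. Their log2 fold changes had a median of -0.33 in ΔPod and -0.28 in K2A, against 0.08 and 0.09 over all genes. Abcb1b, which encodes a P-glycoprotein efflux pump, lay at 4.74, 3.61 and 4.30 CPM in WT, 29.1, 29.9 and 27.2 in ΔPod and 23.5, 26.6 and 29.4 in K2A. It rose in both, with log2 fold changes of 2.77 (SE 0.255, adjusted p = 0.00536) and 2.65 (SE 0.254, adjusted p = 0.00853). Prlr, the prolactin receptor, rose from 14.7, 6.53 and 18.7 CPM in WT to 73.5, 131 and 208 in ΔPod and 82.7, 90.5 and 154 in K2A (ΔPod log2 fold change 3.37 with SE 0.553 and adjusted p = 0.0313; K2A 3.03 with SE 0.545 and adjusted p = 0.0495).

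On the side of the lower genes, Acy3, an aminoacylase that removes the acetyl group of mercapturic acids, lay at 3234, 2702 and 2706 CPM in WT, 203, 535 and 538 in ΔPod and 490.3, 472 and 669 in K2A. It fell in both, with -2.76 (SE 0.422, adjusted p = 0.0244) and -2.41 (SE 0.416, adjusted p = 0.0430). Ugt8a, a relative of the Ugt genes that makes galactosylceramide, lay at 137, 182 and 128 CPM in WT, 9.69, 9.54 and 3.49 in ΔPod and 18.0, 16.6 and 9.20 in K2A (ΔPod log2 fold change -4.30 with SE 0.500 and adjusted p = 0.00954; K2A -3.35 with SE 0.478 and adjusted p = 0.0202). Lap3, a leucine aminopeptidase, and Ephx2, the soluble epoxide hydrolase, passed in ΔPod and missed in K2A. For Lap3 the log2 fold change was -1.36 (SE 0.238, adjusted p = 0.0427) in ΔPod and -1.27 (SE 0.238, adjusted p = 0.0547) in K2A, and for Ephx2 it was -2.34 (SE 0.377, adjusted p = 0.0306) and -1.80 (SE 0.370, adjusted p = 0.0749). Gclc, Gclm, Gss and Gsr, which make and reduce glutathione, and Ugdh, Papss1 and Papss2, which make the donors of the other reactions, were not called. Gclm (log2 fold change -0.61 in ΔPod and -0.42 in K2A) and Gsr (-1.17 and -0.99) lay below WT in all mutant libraries. Gclc and Ugdh did so in ΔPod alone, and Gss in K2A alone. The regulators Nfe2l2, Keap1, Ahr, Nr1i2, Nr1i3 and Hnf4a were not called either. Nr1i2 (0.52 and 0.76) and Nr1i3 (2.54 and 2.82) lay above WT in all mutant libraries, with Nr1i3 at no more than 0.944 CPM. Keap1 (-0.76 and -0.44) lay below WT in all of them. Nfe2l2, Ahr and Hnf4a overlapped WT.

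Promoter windows, from 250 bases before to 50 bases after the start, were found for 58 members, 69 windows in all. No window was found for the called genes Gsta4 and Gsta5. The 69 windows were searched on both strands for short motifs. The antioxidant response element core TGACNNNGC was in 4 of them (Gsta3, Gstm5, Gstm7 and Mgst1) and in 12.4% of all 32851 windows. The STAT core TTCNNNGAA was in 6 (Gsta1, Gstm6, Mgst1, Mgst2, Sult3a1 and Ugt1a6a) and in 8.3% of all. The HNF4 core CAAAGTCCA was in that of Sult1b1 and in 0.475% of all.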

How the data were processed

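Counts of 9 whole-kidney polyA RNA libraries were analysed, 3 per group, grouped by the labels. The authors deposited whole-number counts by gene symbol in separate tables for ΔPod and K2A, both holding WT; per the labels' protocols, libraries were made with ScriptSeq v2 after oligo-dT bead purification. The submitters' processing notes list the build mm10, STAR 2.7.3a, Trim Galore 0.6.3, featureCounts 2.0.1, DESeq2 1.30.0, FastQC 0.11.9 and MultiQC 1.10.1. Strand setting, annotation and the handling of reads matching several places or genes are not given in the sources used here, which touches near-identical copies and the Ugt1a rows. Symbols in both tables with equal WT counts were kept (52160 of 52163 shared, every member among them).

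All 9 libraries entered an edgeR 4.0.16 quasi-likelihood fit in R 4.3.3 with a group term, filterByExpr, TMM scaling and Benjamini-Hochberg adjustment over all tested genes at 0.05. Between ΔPod and K2A same-numbered libraries deviated together (correlation 0.403 to 0.85), though ΔPod 1 also did with K2A 2 (0.774); the labels state no pairing by number, and blocking changed no call there. Errors are SE for fold changes and SD over 3 libraries for levels. The fit was tested on simulated counts. An exact permutation test of 3 against 3 libraries was not used, since its smallest p misses the threshold. Positions and lengths come from GENCODE vM21 (66 of 67 members matched), promoter windows from RefSeq GRCm38.p6; shared sequence was counted as 50-base stretches of the longest coding transcript found in other genes.

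Members, gene lists and tests were chosen with earlier results of these data known. Named are all called members, the 4 highest per length in WT of each superfamily, members without overlap in both mutant groups, the 5 smallest p where fewer than 5 were called, and called pathway genes. Some regulators and motifs are not reported here. Alternatives were RLE, upper quartile and library-size scaling, DESeq2 1.42.0, limma-voom 3.58.1 with sample weights, robust dispersion, a replicate block, a fit on only the 6 libraries of a comparison, no filter, a minimum of 1 CPM in 3 libraries, a length slope or class term, and leaving out each library; added after seeing the data were limma-voom without weights, leaving out the 3 libraries with Adipoq above 10 CPM, and Ugt1a rows without their common count.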

Additional observations from a re-analysis of the deposited data

How the results depend on the processing

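The number of members called was 6, 6 and 0 in ΔPod against WT, K2A against WT and K2A against ΔPod. It was 13, 12 and 0 with DESeq2, and 38, 40 and 13 with limma-voom with sample weights, where the weights ran from 0.0882 (K2A 3) to 12 (ΔPod 2), against 8, 7 and 0 without them. The 13 members between the mutants, 28.3%, compare with 26.3% of all genes. With the length slope as a covariate it was 23 in ΔPod and 24 in K2A, and with the length class as a term 21 and 13. Fitted on the 6 libraries compared it was 1 in ΔPod, and with upper quartile factors, which moved the all-gene median log2 fold change from 0.08 to 0.26 in ΔPod, it was 3 in K2A. Over all genes the calls against WT were 178 in ΔPod and 153 in K2A. They were 775 and 753 with DESeq2, 14146 and 14059 with sample weights, and 217 and 190 without weights. With the slope they were 2544 and 2854, with the class term 715 and 739, and with the replicate block 270 and 232. The 6 libraries alone gave 54 in ΔPod, and upper quartile factors gave 129 in K2A (0.714% of genes). DESeq2 tested 62 members and 33070 genes, where the main fit tested 46 and 18067. Leaving out ΔPod 1, K2A 1 and K2A 2, the libraries with adipocyte markers, left K2A 3 as the only K2A library. The number of calls of that fit is therefore not given, and its K2A values below rest on K2A 3 alone. Leaving out 1 library at a time gave 0 to 8 members in ΔPod and 0 to 10 in K2A. With the replicate block 9, 8 and 0 members were called; the numbers did not pair WT with a mutant group (correlation of deviations -0.62 for WT 1 and ΔPod 1 and -0.545 for WT 1 and K2A 1, against 0.441 to 0.755 for numbers 2 and 3). No called value changed sign. Among the other named members signs changed for Ugt1a6b without the common count (-2.75 in ΔPod, -3.06 in K2A), and without the adipocyte libraries for Gstm2 between the mutants (-0.33), Gstm5 in ΔPod (-0.04) and, in K2A, Gstm1 (0.1), Gstm5 (-0.58), Mgst3 (-0.23), Sult1b1 (-0.27) and Sult1c2 (-0.57). Gstm5 was -0.33 and -0.09 with the length slope and -0.17 and -0.05 with the class term, in ΔPod and K2A. Leaving out 1 library, Gstm5 in ΔPod ran from -0.04 to 0.65 and Sult1c2 in K2A from -0.1 to 0.31. Without ΔPod 1, Mgst3, Sult1d1 and Sult1b1 were at 0.66, 0.53 and 0.59 and Ugt2b5 at -3.12 in ΔPod. The cause of these shifts was not tested. With 3 libraries a group, members of few counts were limited by depth: a group total of 3 counts is 0.0253 to 0.0288 CPM.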
